A study of Mus musculus with 6 samples.

Results

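Motile cilia axoneme genes were taken as every gene of the expression table whose symbol begins with Dnah, Dnaic, Dnai, Cfap, Rsph, Tekt or Drc followed by a digit, together with Foxj1, Dynlrb2, Tppp3, Ccdc153, Sntn and Cdhr4. This gave 70 of the 19423 genes in the table: 33 Cfap genes, 15 axonemal dynein heavy chains, 2 dynein intermediate chains, 6 Rsph genes, 5 tektins, 3 Drc genes and the 6 genes chosen by name. Their levels differed far more between single ovary libraries than between tumor and control ovaries. Tumor replicate 1 had the highest level of most of them, tumor replicates 2 and 3 had the lowest, and the 3 control libraries lay in between.

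A motile cilium beats by means of its axoneme, a ring of doublet microtubules around a central pair. Outer and inner arm dyneins slide the doublets past each other, while the nexin-dynein regulatory complex and the radial spokes hold them together and pass on signals from the central pair. FOXJ1 and the RFX factors are the known transcriptional regulators of axoneme genes. In the female reproductive tract multiciliated cells line the oviduct, a tube that lies against the mouse ovary and that also holds secretory cells and a smooth muscle wall. Small ciliated tubules of the rete ovarii, a remnant of the embryonic kidney tubules, lie at the ovarian hilum. The ovary proper makes its follicles and stroma from cells without motile cilia.

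RNA came from ovaries of balb/c-nude mice, a strain that lacks a thymus and accepts human cells, on day 80. The 3 tumor libraries came from mice injected under the skin with cells that the labels name MBA-MD-231, and the 3 control libraries from mice with the genotype label Control. The treatment labels of the tumor samples count upward from 231 to 233, while the cell line label is the same for each. Setting tumor beside control addresses how a tumor growing elsewhere in the body affects the ovary. Nothing in the labels says how the oviduct was trimmed from the ovary, or whether each library came from 1 animal, so p-values measure only the spread between these libraries, which may be technical. In bulk tissue, fewer ciliated cells and less RNA per ciliated cell cannot be told apart.

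The libraries held 18278614 to 18482073 estimated counts in tumor and 18804610 to 19238900 in control. Where a gene had no count, up to 3 counts remain possible, which is 0.156 to 0.164 CPM, the count scaled to the library's depth; this limit covers counting error only. Levels are given below as TPM, a share of the library's transcripts that corrects for transcript length. Ratios and ranks between libraries were taken from CPM scaled by TMM factors, and log2 fold changes are tumor over control. With edgeR's quasi-likelihood test and an adjusted p threshold of 0.05, 7.71% of the 15787 genes tested passed, 3.8% as higher and 3.91% as lower in tumor.

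The stretches shown next are from the promoters of the 6 members with the highest mean TPM among those with an RFX recognition sequence upstream of the start. They are shown because RFX factors are known regulators of axoneme genes. Whether RFX factors had a part in the members' levels here was not tested. RFX factors bind the X-box, searched here as the letters GTNNCC followed after 2 or 3 bases by the letters GNNAC, on both strands. Each stretch has 60 bases, comes from RefSeq's annotation of GRCm38.p6, is written 5′ to 3′ on the strand of its gene, and has the match in capitals. The stretch of Cfap126 lies at chr1:171122940-171122999 on the plus strand, that of Cfap20 at chr8:95434935-95434994 on the minus strand, and that of Dynlrb2 at chr8:116504940-116504999 on the plus strand. The stretch of Cfap298 lies at chr16:90935001-90935060 on the minus strand, that of Tekt1 at chr11:72361883-72361942 on the minus strand, and that of Dnaic2 at chr11:114727359-114727418 on the plus strand.
Cfap126: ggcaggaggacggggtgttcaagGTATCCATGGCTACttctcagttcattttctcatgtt
Cfap20: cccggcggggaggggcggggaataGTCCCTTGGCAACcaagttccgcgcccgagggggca
Dynlrb2: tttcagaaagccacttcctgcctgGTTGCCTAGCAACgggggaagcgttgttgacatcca
Cfap298: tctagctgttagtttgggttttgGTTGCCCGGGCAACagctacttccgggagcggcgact
Tekt1: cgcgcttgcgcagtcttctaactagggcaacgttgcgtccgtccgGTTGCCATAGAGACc
Dnaic2: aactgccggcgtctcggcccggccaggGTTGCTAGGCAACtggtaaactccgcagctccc

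The match began 82 bases before the start in Cfap126, 101 in Cfap20, 51 in Dynlrb2, 188 in Cfap298, 15 in Tekt1 and 33 in Dnaic2. Starts and strands here are those of the RefSeq promoter annotation. By the deposited gene coordinates, the stretches of Cfap126, Tekt1 and Dnaic2 lie inside the gene rather than before it. The deposited strand of Cfap298 and Tekt1 is plus, unlike the minus strand given above. Promoter windows, from 250 bases before to 50 bases after each start, were found for 58 of the 70 members, in 65 windows; Foxj1, Rsph1, Tppp3 and Cfap53 are among the 12 without one. Of these windows, 32 (49.2%) held an X-box, against 8.1% of the 32851 windows of 27025 genes in the RefSeq promoter table and 8.9% of the 19081 windows of those genes that the expression table also holds. The forkhead letters TGTTTAC or TGTTTGC, which FOXJ1 and other forkhead factors can bind, were in 16.9% of member windows, against 8.48% of all windows and 7.04% of those of genes in the expression table. By gene, 30 of the 58 members had an X-box in some window. These letters say nothing of whether a factor was bound in these ovaries.

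Foxj1, the master transcription factor of motile cilia, had 232, 19.1 and 5.12 TPM in tumor replicates 1, 2 and 3, against 105, 158 and 54.0 TPM in control replicates 1, 2 and 3. Tumor replicate 1 was thus the highest and tumor replicate 3 the lowest library, on either side of all 3 control libraries. Its log2 fold change was -0.48 ± 1.27 (SE, n = 3 each), with an edgeR adjusted p of 0.833. Ccdc153, a protein of the nexin-dynein regulatory complex, had 233, 18.1 and 5.18 TPM in tumor, against 105, 155 and 51.5 TPM in control. Dynlrb2, a light chain of dynein motors, had 205, 17.7 and 4.55 TPM in tumor, against 104, 152 and 45.3 TPM in control. Both repeated the order of Foxj1, and their tumor and control values overlapped.

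The level of Foxj1 relative to Ccdc153 hardly moved while both varied: the ratio of their TPM was 0.998, 1.06 and 0.988 in tumor replicates 1 to 3 and 0.997, 1.02 and 1.05 in control replicates 1 to 3. The highest of these ratios was 1.07 times the lowest, although the CPM of Foxj1 was 43.0 times higher in tumor replicate 1 than in tumor replicate 3. Other members kept less even proportions: the ratio of Foxj1 to Rsph1 was 2.80, 1.93 and 1.17 in tumor, against 2.24, 2.19 and 2.004 in control, a span of 2.40 times. Both ratios were picked after their values were seen. Sntn, whose protein sentan lies at the tips of motile cilia, had 91.2, 5.85 and 1.19 TPM in tumor, against 27.4, 46.5 and 16.2 TPM in control. Its CPM ratio of tumor replicate 1 to tumor replicate 3, 73.3, was the widest among the 65 members with over 3 counts in tumor replicate 3. The cadherin-related gene Cdhr4 had 111, 12.5 and 3.50 TPM in tumor, against 47.0, 67.3 and 25.9 TPM in control. Tppp3, a protein that promotes tubulin polymerization, had 352, 107 and 80.4 TPM in tumor, against 158, 318 and 91.0 TPM in control. Tppp3 kept tumor replicate 1 as its highest library but spanned a narrower range, with a CPM ratio of 3.93 between tumor replicates 1 and 3.

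In GRCm38.p6 coordinates of the deposited table, Foxj1 lies at chr11:116330704-116335499 and Ccdc153 at chr9:44240677-44247306. Dynlrb2 lies at chr8:116505015-116515915, Sntn at chr14:13670876-13683148, Cdhr4 at chr9:107992469-107999683 and Tppp3 at chr8:105467492-105471422. The 6 genes thus lie on 4 chromosomes.

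**Figure D1:**
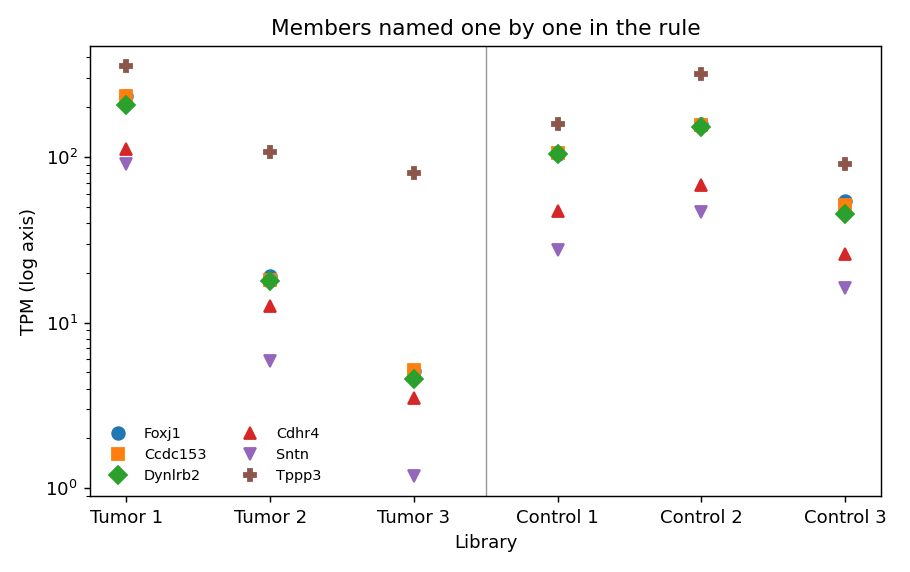
TPM on a log axis of the 6 members named one by one, for tumor 1 to 3 left of the line and control 1 to 3 right of it, 1 point per gene and library. Foxj1, Ccdc153 and Dynlrb2 nearly coincide in each library, at 205 to 233 TPM in tumor 1 and at 4.55 to 5.18 TPM in tumor 3.

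Among outer arm dynein heavy chains, the motors that set beat frequency, Dnah5 had 23.9, 1.53 and 0.38 TPM in tumor, against 6.04, 10.7 and 3.70 TPM in control. Dnah9, which pairs with Dnah5 in the outer part of airway cilia, had 17.0, 1.64 and 0.69 TPM in tumor, against 4.81, 9.24 and 2.79 TPM in control. Dnah11, its partner near the cilium base, had 21.8, 2.97 and 0.58 TPM in tumor, against 8.97, 15.1 and 5.26 TPM in control. All 3 were highest in tumor replicate 1 and lowest in tumor replicates 3 and 2, with overlapping groups. The log2 fold change of Dnah9 was 0.02 ± 1.14, with an edgeR adjusted p of 0.992.

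The other two outer arm heavy chains, Dnah8 and Dnah17, are known as the forms of the sperm tail and went another way. Dnah8 had 2.48, 3.34 and 3.38 TPM in tumor, against 1.42, 2.39 and 1.53 TPM in control. Dnah17 had 1.14, 1.22 and 1.13 TPM in tumor, against 0.62, 0.77 and 0.65 TPM in control. The tumor values of Dnah17 lay above all 3 control values, while Dnah8 was separated from control in TPM but not in TMM-scaled CPM, where control replicate 2 stood above tumor replicate 1. Dnah17 shares 93 exon bases with Pgs1 on the other strand in GENCODE vM21, so its reads are uncertain. The log2 fold change was 0.61 ± 0.18 for Dnah17 (edgeR adjusted p = 0.0818) and 0.61 ± 0.23 for Dnah8 (edgeR adjusted p = 0.137), so neither passed. Of the 10 sperm and spermatid markers, 6 were in the table used, and Prm1, Prm2, Tnp2, Odf1 and Spem1 were below 1 TPM in every library. Odf2, which is also a centrosome gene, had 62.5, 52.4 and 49.3 TPM in tumor, against 47.0, 49.4 and 45.7 TPM in control, and was not called (edgeR adjusted p = 0.842).

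Of the 10 inner arm heavy chains, which shape the ciliary bend, 8 had the Foxj1 order of libraries. Dnah6 had 25.5, 2.51 and 0.95 TPM in tumor, against 9.73, 15.4 and 6.05 TPM in control. Dnah3 had 13.0, 1 and 0.23 TPM in tumor, against 4.61, 8.14 and 2.49 TPM in control, and Dnah12 ran in the same order. Dnah2 had 14.4, 19.5 and 18.3 TPM in tumor, against 5.61, 27.9 and 5.60 TPM in control. Dnah2 thus had its highest value in control replicate 2, and its log2 fold change of 0.30 ± 0.64 had an edgeR adjusted p of 0.792. Dnah14, the weakest member of the 10, stayed at or below 0.36 TPM. Dnah7a, Dnah7b and Dnah7c are close copies of 1 ancestral gene, so how reads were split among them is uncertain.

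Both dynein intermediate chains, which anchor the outer arm motors, followed Foxj1. Dnaic1 had 33.5, 3.77 and 0.72 TPM in tumor, against 15.5, 25.4 and 8.29 TPM in control. Dnaic2 had 39.9, 5.07 and 1.61 TPM in tumor, against 22.6, 32.0 and 13.5 TPM in control. Tumor replicate 1 was the highest and tumor replicate 3 the lowest library for both.

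Radial spoke genes differed in how far they spread. Rsph1, a protein of the spoke head, had 82.9, 9.91 and 4.38 TPM in tumor, against 46.7, 72.1 and 27.0 TPM in control. Rsph9, also of the spoke head, had a narrower spread, with 34.5, 10.6 and 7.83 TPM in tumor, against 19.9, 27.2 and 12.7 TPM in control. Rsph3a, of the spoke stalk, had 53.9, 37.5 and 39.5 TPM in tumor, against 57.7, 52.2 and 51.5 TPM in control. In TPM the tumor 1 value of Rsph3a lay within the control range, while in TMM-scaled CPM all 3 tumor values were below control. Its log2 fold change was -0.47 ± 0.16, with an edgeR adjusted p of 0.102. Rsph3b had 42.7, 24.6 and 19.8 TPM in tumor, against 31.8, 35.0 and 28.2 TPM in control. Rsph3a and Rsph3b are near copies, so the split of reads between them is uncertain.

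The tektins, filaments inside the doublet microtubules, were lowest in tumor replicate 3. Tekt1 had 46.1, 5.63 and 1.93 TPM in tumor, against 19.1, 36.4 and 11.5 TPM in control. Tekt4 had 37.5, 3.97 and 0.96 TPM in tumor, against 14.1, 34.4 and 9.73 TPM in control. Tekt3 had 52, 7 and 0 counts in tumor, against 36, 60 and 14 counts in control, and the 0 allows up to 0.162 CPM in that library. Tekt2 had the Foxj1 order at a lower level, while Tekt5, a testis tektin, had at most 15 counts and was the only member that did not pass the filter on low counts. Drc3, the most abundant of the 3 Drc genes of the nexin-dynein regulatory complex, had 68.8, 7.75 and 3.72 TPM in tumor, against 26.7, 43.9 and 13.5 TPM in control. Drc1 and Drc7 had the same order of libraries.

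Of the 33 Cfap genes, 24 shared the Foxj1 order. Cfap126, known as Flattop and needed for basal body docking, had 235, 29.4 and 14.9 TPM in tumor, against 106, 157 and 73.2 TPM in control. It had the highest mean TPM of the Cfap genes with that order. Cfap20, a protein inside the doublet that primary cilia also carry, had 122, 84.8 and 75.3 TPM in tumor, against 103, 101 and 94.6 TPM in control. Cfap298, a dynein arm assembly factor, had 65.5, 39.0 and 37.4 TPM in tumor, against 54.1, 72.1 and 43.1 TPM in control. Both kept tumor replicates 2 and 3 as the lowest libraries, with CPM ratios of tumor replicate 1 to 3 of only 1.55 and 1.67. Their promoters nevertheless hold an X-box, shown above, as do those of 7 of the 16 members with a window that lack the Foxj1 order and 23 of the 42 that have it.

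The 2 Cfap genes with the smallest p varied less within each group than the median member did. Cfap36, whose protein binds the small GTPase ARL3, had 43.3, 32.2 and 32.2 TPM in tumor, against 47.5, 55.1 and 49.2 TPM in control. All 3 tumor values were below all 3 control values, and the log2 fold change of -0.59 ± 0.14 had an edgeR adjusted p of 0.0507. In the authors' deposited table, which used DESeq2, Cfap36 was the only member with a q below 0.05, at a log2 fold change of -0.58 and a q of 0.00717. In that table, 14.7% of 19327 genes had such a q. Cfap97, the mouse relative of the fly gene hemingway, had 21.7, 19.7 and 20.7 TPM in tumor, against 13.6, 16.2 and 15.3 TPM in control. Its tumor values lay above control, with a log2 fold change of 0.29 ± 0.08 and an edgeR adjusted p of 0.0746. It shares 132 exon bases with Snx25 on the other strand. In all, 12 of the 67 members found in GENCODE vM21 share exon bases with another protein-coding gene. The strand of the libraries is not given in the sources used here, so reads shared between opposite strands cannot be told apart. The overlaps of Cdhr4 with Gm20661 and Gm20662 and of Cfap43 with Itprip are on the same strand. There the strand of a read would not tell the genes apart either. The longest shared stretches were 1506 bases of Dnah3 with Lyrm1, 889 of Cdhr4 with Gm20662 and 642 of Dnah11 with Cdca7l. Cfap410 and Cfap77, also among the 10 smallest p, had log2 fold changes of -0.14 ± 0.14 and -0.65 ± 0.78, with edgeR adjusted p of 0.546 and 0.616.

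Cfap53, a microtubule inner protein known from left-right patterning, had the highest mean TPM of the Cfap genes and a pattern unlike Foxj1, with 172, 171 and 244 TPM in tumor, against 199, 154 and 216 TPM in control. The deposited transcript table placed 99.95% of its counts on the predicted model XM_011247012.2. The curated model NM_028948.2 had 13.65, 1 and 0 counts in tumor, against 7.1, 6.2 and 3.02 counts in control. The curated model was thus highest in tumor replicate 1, and the predicted model in tumor replicate 3. At counts this low the order of the curated model is uncertain, and its 1 and 0 counts in tumor replicates 2 and 3 cannot be ranked. Its control replicate 1 stood above control replicate 2, unlike in Foxj1. What the predicted model stands for was not tested.

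**Figure D2:**
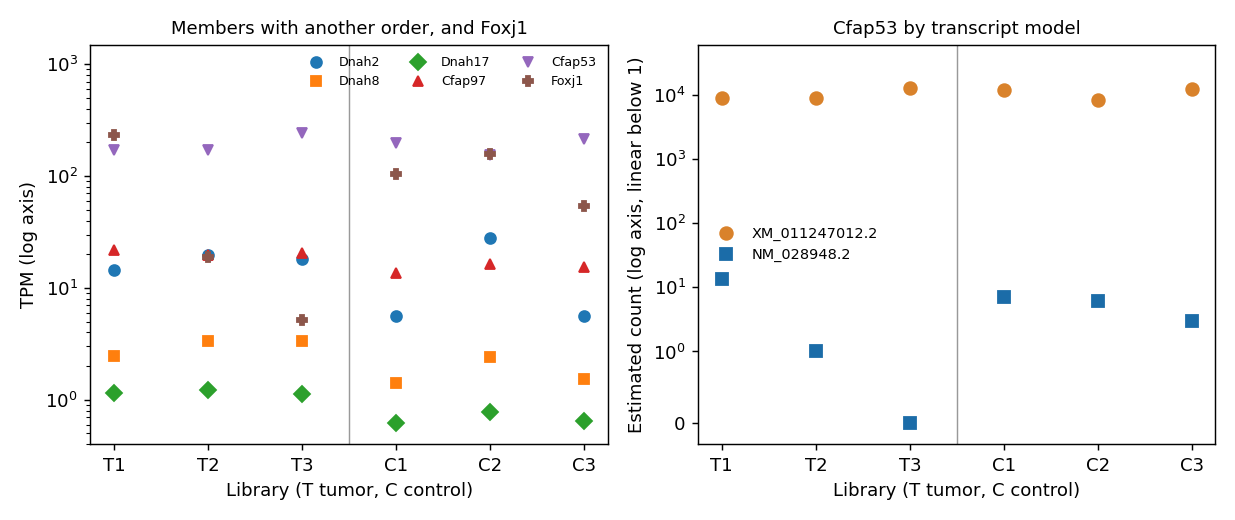
Left, TPM on a log axis of 5 members that lack the Foxj1 order, with Foxj1 for comparison; Cfap53 lies under Foxj1 in control 2. Right, estimated counts of the 2 Cfap53 transcript models, on an axis that is linear below 1: the predicted model stays between 8389.6 and 12570.37 counts, while the curated one has at most 13.65.

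Across the 69 members tested, 51 (73.9%) had exactly the Foxj1 order, from high to low tumor replicate 1, control replicates 2, 1 and 3, and tumor replicates 2 and 3, against 3.43% of all genes tested. Tumor replicate 1 was the highest library for 57 members (82.6%, against 23.2% of all genes). Tumor replicates 2 and 3 were the 2 lowest libraries for 61 members (88.4%, against 16.2% of all genes). The controls were ordered as well, with replicate 2 above 1 above 3 in 60 members (87.0%, against 3164 of the 15787 genes tested). The median member spanned 3.50 on the log2 scale over the 6 libraries, against 0.69 for the median of all genes. Within tumor that span was 3.50 for the median member, against 0.35 for all genes, and within control it was 1.28, against 0.31.

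The 18 tested members with another order were Cfap20, Cfap20dc, Cfap298, Cfap300, Cfap36, Cfap410, Cfap52, Cfap53, Cfap97, Rsph3a, Rsph3b, Tekt3, Tekt4, Dnah14, Dnah2, Dnah17, Dnah8 and Tppp3. Cfap298, Cfap52, Tekt3 and Tekt4 differed from the Foxj1 order only in that control replicate 2 stood above tumor replicate 1. Over the 6 libraries, 53 of the 69 members had a Pearson r of at least 0.95 with the mean profile of the members, of which each is itself a part. The lowest values were those of Dnah8 and Cfap53, each at -0.53, Dnah17 at -0.41, Cfap97 at -0.32 and Dnah2 at -0.08.

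**Figure D3:**
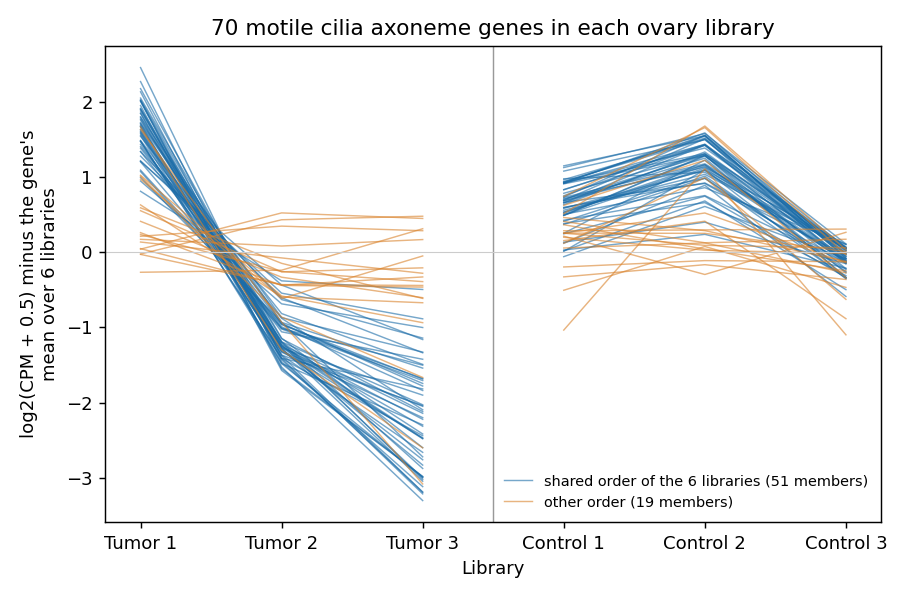
log2(CPM + 0.5) of each of the 70 members minus its own mean over the 6 libraries, 1 line per gene, with tumor 1 to 3 left of the line and control 1 to 3 right of it. The 51 members with the Foxj1 order are in blue and the other 19, Tekt5 included, in orange; the blue lines are highest at tumor 1 and lowest at tumor 3.

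As a measure of oviduct tissue, each library was given the summed level of the members. The 70 members summed to 3227, 835.8 and 709.4 TPM in tumor replicates 1, 2 and 3, against 1716, 2448 and 1210 TPM in control replicates 1, 2 and 3. Cfap53, whose pattern was unlike Foxj1, gave 244 TPM of the sum in tumor replicate 3. Without Cfap53 the sums were 3056, 665.3 and 465.7 TPM in tumor, against 1517, 2295 and 993.7 TPM in control. In TMM-scaled CPM all members summed to 3627, 1164 and 1185 in tumor, against 2330, 2887 and 1739 in control. By that sum tumor replicate 2, not 3, was the lowest library. The median member stood at 22.7, 3.34 and 1.47 TPM in tumor, against 11.2, 16.9 and 6.23 TPM in control. Relative to each member's own mean over the 6 libraries, the median level was 2.14, 0.292 and 0.136 in tumor, against 1.09, 1.59 and 0.636 in control. In these measures tumor replicate 1 held more RNA of these genes than any control library, and tumor replicates 2 and 3 less than any. No library was free of them: even in tumor replicate 3, 65 of the 70 members had over 3 counts. Averaged over libraries, the members summed to 1591 ± 1419 TPM in tumor and 1791 ± 622.6 TPM in control (SD, n = 3 each), a difference far inside the spread.

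Between the groups as a whole, no member passed edgeR's test at an adjusted p of 0.05, in either direction, against the 7.71% of all genes given above. At an unadjusted p under 0.05 there were 5 members, Cfap36, Cfap97, Dnah17, Rsph3a and Dnah8, which is 7.25% against 31.0% of all genes tested. DESeq2 called 2 members (2.9%, against 19.1% of all genes tested). These were Cfap36 as lower (log2 fold change -0.58, DESeq2 adjusted p = 0.00598) and Dnah17 as higher (0.62, DESeq2 adjusted p = 0.0491). Limma on log2 FPKM called 0 members, while over all 15787 genes it called 758 higher and 584 lower with log2(FPKM + 1). The CPM of tumor and control did not overlap for 4 members (5.8%), against 38.1% of all genes. The median log2 fold change was -0.30 over the tested members and -0.015 over all genes, with a median SE of 1.03 over the members and 0.17 over all genes. The size of that median depended on the method: it was -1.19 with the replicate number as a block, -1.11 with limma on log2(FPKM + 0.1) and -0.60 with limma on log2(FPKM + 1), below 0 in each.

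The members' calls and their median changed most when tumor replicate 1 was left out. Without tumor replicate 1, 43 of the 69 members were called lower in tumor and 0 higher, in a fit where 9.63% of 15937 genes were called lower and 6.72% higher. Of the 43, 38 had the Foxj1 order, and the others were Cfap20, Cfap36, Rsph3a, Rsph3b and Tekt4. The Foxj1 order itself places tumor replicates 2 and 3 below all 3 control libraries. In Cfap20, Cfap36, Rsph3a, Rsph3b and Tekt4, tumor replicates 2 and 3 were likewise below all 3 control libraries in TMM-scaled CPM. Without tumor replicate 1, the direction of all 43 calls is thus given by the library order and is no separate result. Foxj1 then had a log2 fold change of -3.26 ± 0.69 and an edgeR adjusted p of 0.0390 (n = 2 tumor and 3 control). The called changes lay between -3.44 and -0.46 on the log2 scale, and the median over the members was -2.38. With each other tumor or control library left out instead, the median stayed between -0.53 and 0.12. No member was called without tumor replicate 2 or 3 or control replicate 1 or 3. Over all genes, however, each of these fits called at most 1 gene higher and 5 lower, so their lack of member calls says nothing about the members. The fit without control replicate 2 called 1188 of 16011 genes higher and 1086 lower. Among the members it called Dnah2 (log2 fold change 1.48, edgeR adjusted p = 0.0203) and Dnah8 (0.87, edgeR adjusted p = 0.0457) as higher in tumor.

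**Figure D4:**
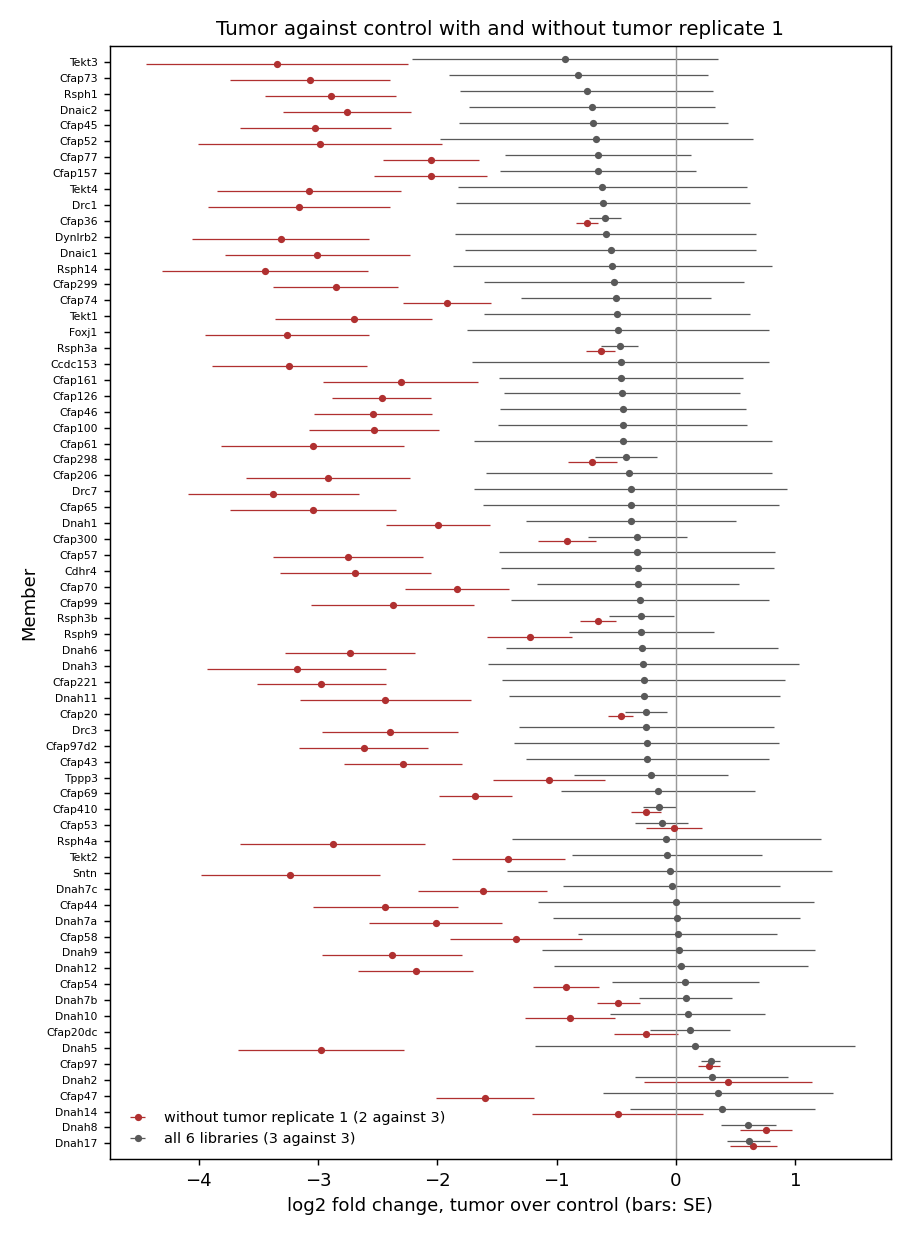
log2 fold change, tumor over control, of the 69 tested members with its SE as a bar, in red without tumor replicate 1 and in grey with all 6 libraries. With all libraries the values lie between -0.93 and 0.61 with long bars, while without tumor replicate 1 the members lie mostly between -3.44 and -1.

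Markers of the oviduct's secretory cells were measured beside the cilia genes. Ovgp1, the oviduct-specific glycoprotein that secretory cells release, had 1179.91, 62.7 and 14.3 TPM in tumor, against 1383.72, 1362.22 and 247 TPM in control. Tumor replicates 2 and 3 were again the lowest libraries, but tumor replicate 1 was below control replicates 1 and 2, unlike Foxj1. The ratio of Foxj1 to Ovgp1 TPM was 0.197, 0.305 and 0.359 in tumor, against 0.0756, 0.116 and 0.219 in control, a span of 4.75 times. Pax8, a transcription factor of secretory cells and of the rete, had 42.8, 3.61 and 1.77 TPM in tumor, against 16.4, 28.5 and 4.44 TPM in control. Pax8 had the library order of Foxj1 but not a steady proportion to it: the ratio of Foxj1 to Pax8 was 5.43, 5.29 and 2.89 in tumor, against 6.39, 5.53 and 12.2 in control, a span of 4.21 times. Epcam, a general epithelial adhesion protein, had 99.6, 18.3 and 10.7 TPM in tumor, against 64.3, 61.4 and 32.8 TPM in control. The claudin Cldn3 had 81.8, 5.83 and 3.01 TPM in tumor, against 59.6, 59.5 and 20.4 TPM in control. For both, tumor replicate 1 was the highest library and control replicate 3 the lowest of the controls. Of the 12 genes on the secretory and rete list, 10 were tested and none was called, against 7.71% of all genes tested. Tumor replicates 2 and 3 were the lowest libraries for 9 of the 10, against 16.2% of all genes tested. The summed level of that list was 1581, 136.7 and 64.38 TPM in tumor, against 1650, 1647 and 380.2 TPM in control, and Lhx1 was at or below 0.05 TPM in every library. Tumor replicate 1 and control replicates 1 and 2 thus held secretory and ciliated markers together at a high level, control replicate 3 held less of both, and tumor replicates 2 and 3 held the least of both.

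The 6 genes of the uterine list summed to 14.9, 3.63 and 1.28 TPM in tumor, against 15.1, 17.3 and 6.02 TPM in control. Neither of the 2 tested was called, against 7.71% of all genes tested. Foxa2, a gland factor of the uterus, was the larger part of that sum in every library but tumor replicate 3 and had the order of Foxj1, while Hoxa11 stayed at or below 0.25 TPM. On the ovarian surface epithelium list, Krt19 had 232, 53.3 and 29.5 TPM in tumor, against 223, 274 and 89.7 TPM in control. Keratins are also made by the oviduct epithelium. Aldh1a2, a retinoic acid enzyme, went another way, with 61.8, 102 and 119 TPM in tumor, against 181, 93.0 and 235 TPM in control, so that tumor replicate 1 was its lowest library. Wt1, a factor of surface and stromal cells, had 160, 114 and 81.7 TPM in tumor, against 138, 136 and 129 TPM in control. None of the 10 genes of that list was called, against 7.71% of all genes tested. Tumor replicates 2 and 3 were the lowest libraries for 7 of them, against 16.2% of all genes tested.

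No gene of the adipocyte, smooth muscle and granulosa cell lists had the Foxj1 order. Only 3.43% of all genes tested had it, so its absence does not set these lists apart. The adipocyte list summed to 20180, 1806 and 7877 TPM in tumor, against 1120, 1679 and 1307 TPM in control. Tumor replicate 1 was the highest library for 11 of its 12 genes, against 23.2% of all genes tested. In sum, tumor replicate 3, lowest in most measures of cilia genes, was the second highest. None of the 12 was called, against 7.71% of all genes tested. Fabp4, the fat cell's fatty acid carrier, had 6546.81, 512 and 2718.32 TPM in tumor, against 358, 443 and 387 TPM in control, with a log2 fold change of 2.87 and an edgeR adjusted p of 0.08645. Cfd, the fat cell's complement factor, had 8963.06, 669 and 2994.23 TPM in tumor, against 335, 639.8 and 430.3 TPM in control, and Retn, the hormone resistin, likewise was highest in tumor replicate 1 and next in tumor replicate 3. The fat cell hormone Adipoq had 1013.08, 103 and 416 TPM in tumor, against 57.9, 84.5 and 64.8 TPM in control. The smooth muscle list, which the oviduct wall and the ovarian stroma share, summed to 1515, 2391 and 1879 TPM in tumor, against 2942, 2949 and 2769 TPM in control. Tumor replicate 1, the highest library in cilia genes, was thus the lowest in this sum. Of the 10 smooth muscle genes 4 were called lower, Actg2, Des, Cnn1 and Tagln, and 1 higher, Myocd, a transcriptional coactivator of smooth muscle genes. Over all genes tested, 3.91% were called lower and 3.8% higher. The actin gene Acta2 had 605, 1043.21 and 839 TPM in tumor, against 1091.03, 1181.54 and 955 TPM in control and was not called (edgeR adjusted p = 0.142). The contractile gene Actg2 had 114, 204 and 161 TPM in tumor, against 333, 319 and 337 TPM in control (log2 fold change -1.21, edgeR adjusted p = 0.0385). The granulosa cell list summed to 3773, 6356 and 6300 TPM in tumor, against 5417, 4549 and 5481 TPM in control, and tumor replicate 1 was its lowest library. Inha, the inhibin subunit that marks follicles, had 2592.41, 4645.41 and 4592.1 TPM in tumor, against 4170.1, 3717.16 and 4115.34 TPM in control, so follicle tissue was present in every library. Amh had 256, 267 and 336 TPM in tumor, against 320, 231 and 378 TPM in control, and Hsd17b1, an enzyme of estradiol synthesis, had 281, 415 and 367 TPM in tumor, against 434, 164 and 420 TPM in control. In that list 1 of 10 genes was called, against 7.71% of all genes tested. This was the estrogen receptor gene Esr2, with 82.9, 98.1 and 88.4 TPM in tumor, against 32.4, 43.6 and 35.6 TPM in control (log2 fold change 1.12, edgeR adjusted p = 0.0248). The part of fat, muscle and follicle content in the members' levels was not tested.

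**Figure D5:**
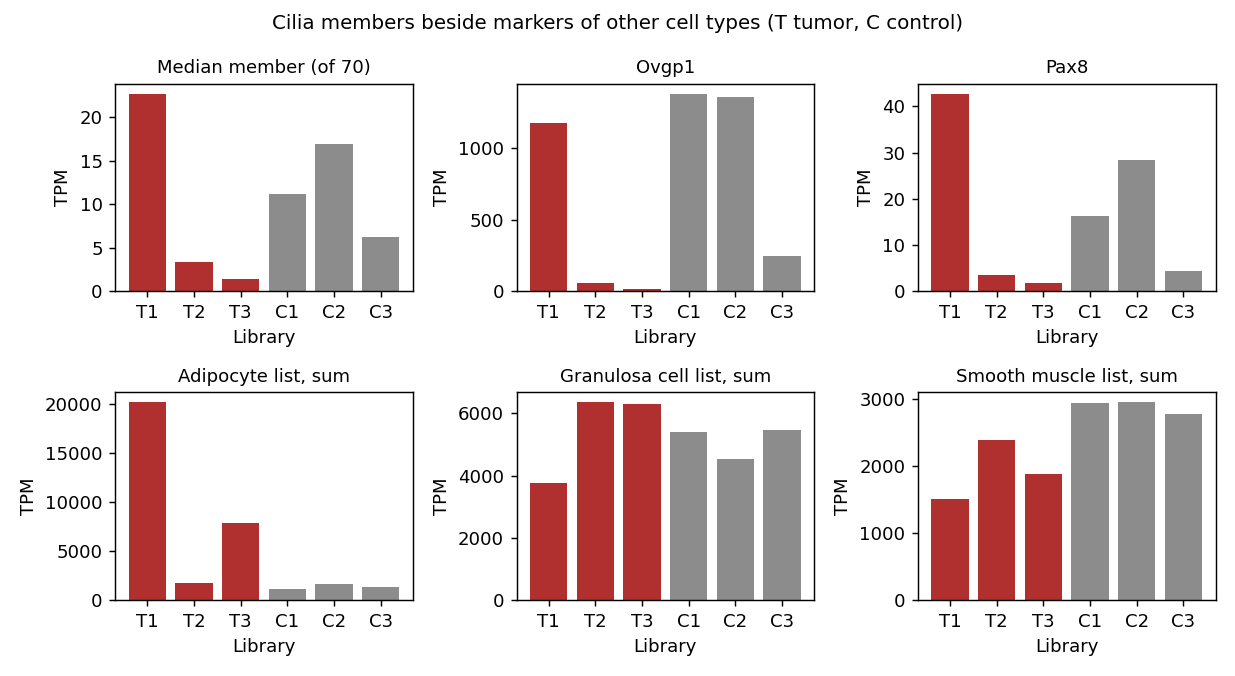
TPM on linear axes in tumor 1 to 3 (red) and control 1 to 3 (grey) of the median member, of Ovgp1 and Pax8, and of the summed adipocyte, granulosa cell and smooth muscle lists, 1 bar per library. The median member, Ovgp1 and Pax8 are near 0 in tumor 2 and 3, the adipocyte sum is highest in tumor 1, and the granulosa sum is lowest there.

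Genes of the same organelle outside the naming rule were counted from lists of the known machinery. Of 12 central apparatus genes, 10 had the Foxj1 order, which 3.43% of all genes tested had. None of the 12 was called, against 7.71% of all genes tested. These shares also stand beside the counts of the lists that follow. The adenylate kinase Ak7 had 55.6, 7.56 and 3.67 TPM in tumor, against 23.0, 36.6 and 15.6 TPM in control. Spef1, a protein that bundles the central pair and is also used in other epithelial cells, had a narrower spread, at 36.0, 16.7 and 13.1 TPM in tumor, against 24.9, 28.8 and 18.04 TPM in control. The kinesin gene Kif9 had 25.4, 3.69 and 2.26 TPM in tumor, against 13.3, 19.3 and 7.77 TPM in control. Of 16 dynein docking and nexin link genes, 12 had the order and none was called. Dnali1, an inner arm light intermediate chain, had 72.7, 7.71 and 3.47 TPM in tumor, against 32.3, 58.9 and 17.9 TPM in control. Of 11 dynein arm assembly factors, 6 had it and none was called. In that list Wdr92, also used outside cilia, ran another way, at 121, 185 and 225 TPM in tumor, against 231, 157 and 252 TPM in control. Of 27 genes of intraflagellar transport and the BBSome, which primary cilia of most cells also need, 5 had it and none was called. Tumor replicates 2 and 3 were the lowest libraries for 16 of the 27, against 16.2% of all genes tested. The summed level of these 27 genes was 1027, 750.4 and 681.5 TPM in tumor, against 850.3, 946.1 and 790.3 TPM in control, a narrower spread than that of the members.

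Among regulators of multiciliation, 5 of the 12 tested had the Foxj1 order, against 3.43% of all genes tested. None was called, against 7.71% of all genes tested. Ccdc78, a protein of the deuterosome where extra centrioles form, had 75.1, 9.00 and 4.06 TPM in tumor, against 31.5, 53.7 and 19.1 TPM in control. Rfx2, an RFX factor that binds the X-box, had 26.8, 9.80 and 8.35 TPM in tumor, against 15.4, 21.0 and 14.6 TPM in control. Its order of libraries was that of Foxj1, over a narrower span. Myb, which acts early in the multiciliated cell program, had 17.2, 1.13 and 0.17 TPM in tumor, against 4.93, 9.78 and 3.32 TPM in control. Ccno, a cyclin-like gene needed for centriole amplification that oocytes also express, had 50.4, 40.9 and 44.8 TPM in tumor, against 24.7, 27.1 and 37.1 TPM in control. Ccno did not have the order of Foxj1, and its log2 fold change of 0.45 had an edgeR adjusted p of 0.133. The centriole kinase Plk4, which dividing cells use too, had 12.2, 14.9 and 15.3 TPM in tumor, against 9.91, 8.24 and 11.6 TPM in control.

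Outside the members, the 10 genes with the profile most like that of the members were Adgb, Armc2, Ttc9, Vwa3a, Efcab1, Cdh1, Wdr66, Spag6l, Trp73 and Cldn2. Likeness was the Pearson r over the 6 libraries between a gene's log2 CPM and the members' mean profile, among 14982 genes with a mean CPM of at least 1. It lay between 0.9982 and 0.9997 in these 10 genes, and 168 genes outside the members reached 0.99. Since all genes were measured in the same libraries, r describes these 6 libraries alone. Adgb had 17.9, 1.42 and 0.44 TPM in tumor, against 6.06, 10.7 and 2.85 TPM in control. Cdh1, the epithelial cadherin, had 55.3, 5.84 and 3.41 TPM in tumor, against 19.8, 33.5 and 10.9 TPM in control. Cldn2, a tight junction claudin, had 24.7, 1.95 and 0.47 TPM in tumor, against 8.08, 14.9 and 3.43 TPM in control. Both epithelial junction genes were again highest in tumor replicate 1 and lowest in tumor replicate 3.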

How the data were processed

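Total RNA of mouse ovary was sequenced as single-end reads in 6 libraries, per the labels' protocols. The submitters' processing notes name RSEM 1.2.12, HISAT2 2.0.4, Bowtie2 2.2.5 and the build GRCm38.p6 without role or order; the strand of the libraries was not stated. Per the file headers, the authors deposited estimated counts, FPKM and TPM for each gene and transcript. The authors also deposited p-values, q-values and log2 fold changes of a DESeq2 comparison, per the file headers, in which a positive value means higher in tumor.

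Whole numbers were made from the estimated counts by rounding. The filter on low counts was filterByExpr of edgeR 4.0.16 in R 4.3.3, which left 15787 genes, and libraries were scaled by TMM. The test of tumor over control was edgeR's robust quasi-likelihood F test, with Benjamini-Hochberg adjustment over all genes tested and a threshold of 0.05. The SE is the absolute log2 fold change divided by the square root of F. The procedure was tested on simulated data. DESeq2 1.42.0, limma 3.58.1, other scaling, filter and length settings and leaving out each library were alternatives. Members and gene lists were chosen with earlier results of these data known. Named genes were the 6 chosen by symbol, the 4 members of highest mean TPM in each family, the 10 with the smallest p, genes among the 3 of highest mean TPM in each list and the 10 of most like profile. Others, such as Dnah2 as a call without control replicate 2, Pax8, Lhx1, Adipoq, Myb, Esr2, Des, Cnn1 and Myocd, were named after their values were seen.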

Additional observations from a re-analysis of the deposited data

How the results depend on the processing

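Of the 70 members, no call was made with all libraries under RLE size factors, no filter on low counts, a gene length correction, limma-trend on log2(FPKM + 1) or on log2(FPKM + 0.1), or the replicate block; DESeq2 called 1 higher and 1 lower. With single libraries left out, members called higher numbered 0 to 2 and members called lower 0 to 43. Over all genes, 600 were called higher and 617 lower, against 1526 and 1503 with DESeq2, 153 and 206 with the gene length correction and 0 and 0 with the replicate block. With single libraries left out, between 0 and 1188 genes were called higher and between 0 and 1534 lower. The labels do not say whether the numbers 1 to 3 pair the libraries. Deviations of same-numbered tumor and control libraries from their group means correlated at 0.218, -0.247 and 0.554 over 15788 genes. Tumor replicate 1 correlated best with control replicate 2, at 0.351, and tumor replicate 3 with control replicate 3. These values cannot decide on pairing, since deviations from a mean of 3 libraries depend on each other. With single libraries left out, the log2 fold change lay between -1.60 and 0.84 for Cfap47, between -2.97 and 0.72 for Dnah5 and between -2.38 and 0.60 for Dnah9; that of Dnah12 was -2.18 without tumor replicate 1, and each was lowest in that fit. The summed level of the members was 4.55 times higher in tumor replicate 1 than in tumor replicate 3 in TPM, 3.06 times in TMM-scaled CPM, 15.7 times as the median relative level and 6.56 times without Cfap53, the last added after seeing the data. In member windows the X-box was in 23.1% with 3 bases between its parts and 26.2% with 2, TGTTTAC in 7.69% and TGTTTGC in 9.23%. The cause of these moves was not tested, except that fewer libraries leave fewer degrees of freedom. Depth limits members with 3 counts or fewer in tumor replicate 3, of which there were 5.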
